A study of Danio rerio with 8 samples.

Results

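Corneas of unwounded adult zebrafish were profiled by RNA sequencing, and the 4 libraries described here are those whose treatment label reads "No treatment", of 8 libraries in the series. They served as the controls of an abrasion experiment, and no abraded cornea enters any value below. All fish were wild type on the AB background with no transgene or mutation in the labels. The fish had been put under anesthesia, laid on a sponge as the abraded animals were, and left for 1.5 h, and were killed under Tricaine, the anesthetic, before their corneas were taken, so the libraries describe corneas of handled fish that were not abraded. The older libraries came from fish of 180 days (library 1) and 183 days (library 4), and the younger from fish of 145 days (library 2) and 148 days (library 3). Each library pooled 6 corneas of 3 fish from a tank of its own, so the 4 libraries stand for 24 corneas of 12 fish, single fish cannot be seen, and age and tank cannot be told apart.

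The library totals lay between 40524885 and 44250662 counts. Levels are given as CPM, the counts of a gene scaled to a library total of 1e6, with the SD over the 4 libraries. CPM is a share of reads and is not corrected for the length of an mRNA, so a long transcript takes more reads than a short one at the same number of molecules, and values of different genes are therefore set side by side as shares of reads only. Pooled tissue cannot tell fewer cells of a type from less RNA per cell.

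The cornea is the clear front of the eye. In fish, as in mammals, a stratified epithelium rests on a basal lamina and covers a collagen stroma with flattened keratocytes, and a single layer of corneal endothelium lines the inner face. Sensory nerve fibres run through the stroma into the epithelium. Blood vessels are kept out of the healthy cornea, and some enzymes and cytoskeletal proteins are stored in its cells at unusually high levels and are called corneal crystallins for that reason.

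The label was checked against 6 epithelial markers, and all 6 were abundant in every library. The type II keratin krt5 (ENSDARG00000058371), the highest gene of the cornea, had 41646, 45246, 41492 and 40474 CPM in libraries 1 to 4, and the type I keratin krt91 had 33133, 35470.4, 35079 and 30765 CPM. The superficial-layer keratin krt4 averaged 9409 ± 1339 CPM, the adhesion molecule epcam 3261 ± 87.9 CPM and E-cadherin (cdh1) 1222 ± 105 CPM. TP63, the p63 factor that maintains basal cells of stratified epithelia, had 396, 425, 566 and 579 CPM. Together the 6 genes drew 90209.7 ± 5182 CPM.

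Of the 32520 genes in the annotation, 24454 had at least 1 count and 8066 had none. At a mean of 1 CPM, 14984 genes (46.1%) were detected, 13625 of them at 1 CPM or more in every library. The reads were concentrated in few genes: the highest gene took 4.22% ± 0.21 of all counts, the 10 highest 16.2% ± 0.62, the 100 highest 38.5% ± 0.21 and the 1000 highest 71.3% ± 0.65 (SD, n = 4). Only 136 genes averaged 1000 CPM or more, whereas the median detected gene was at 10.05 CPM.

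Keratins, actins, desmosome proteins, collagen I and the translation machinery made up most of the 20 highest genes. After krt5 (42214 CPM) and krt91 (33612 CPM) came scinla (15615 CPM), a gelsolin-family protein described as a corneal crystallin in zebrafish, and the cytoplasmic actin actb2 (15288 CPM). The fifth was si:dkey-238c7.12 (ENSDARG00000095556), a gene with a clone name only, at 14355, 13428, 11306 and 13617 CPM in libraries 1 to 4. The translation factors eef1a1l1 (11146 CPM) and eef2b (6592 CPM), the keratins krt4 and krt97 (7691 CPM), the mitochondrial MT-CO1 (7455 CPM) and the pentose phosphate enzyme transketolase (TKT, 6502 CPM) followed. The large scaffold protein gene ahnak (5454 CPM) and the nuclear noncoding RNA malat1 (5260.2 CPM) are both long transcripts. Below them were the collagen I genes col1a1a (5015 CPM) and COL1A1 (4255 CPM), actb1 (4986 CPM), the lipid carrier apoeb (4525 CPM), the desmosome-associated PERP (4306 CPM), the desmoglein dsg2.1 (4146 CPM) and the prostaglandin D synthase gene ptgdsb.1 (4088 CPM). Symbols in capitals are human-style names that the reference table gives to zebrafish genes, some of them to several copies.

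**Figure D1:**
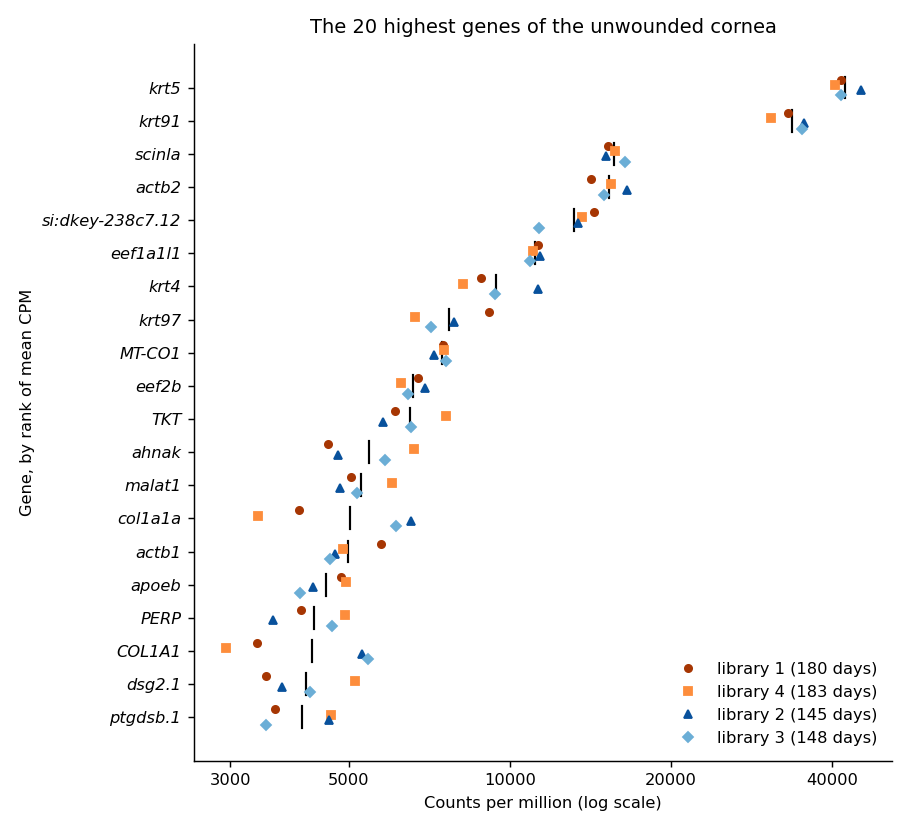
CPM (log axis) of the 20 genes of highest mean level, one row per gene, with a symbol for each of the 4 unwounded libraries and a black line at the mean. krt5 and krt91 lie apart from the rest at means of 42214 and 33612 CPM, and the 2 collagen I genes are the rows in which both younger libraries lie farthest above both older ones.

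By gene class, keratins took the largest share of reads, 9.902% ± 0.618 (SD, n = 4) from 23 genes, of which 18 reached 1 CPM. Cytosolic ribosomal proteins took 7.96% ± 0.446, actins and actin-binding proteins 3.75% ± 0.0932, translation factors 3.53% ± 0.0825, and claudins, cadherins and desmosome proteins 3.502% ± 0.387. Collagens took 2.27% ± 0.575 and the gelsolin family 1.697% ± 0.0581 (scinla and scinlb held most of it). The 13 mitochondrially encoded genes took 1.75% ± 0.0624. Annexins and S100 proteins took 1.18% ± 0.0903, heat shock proteins and chaperones 1.17% ± 0.0373, and genes for MHC and antigen presentation 0.413% ± 0.0646. Classes were assigned from symbols alone, so that KRTCAP2, which is no keratin, counts with them. 58.8% of reads fell on named genes of no class and 1.26% on genes without a symbol.

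**Figure D2:**
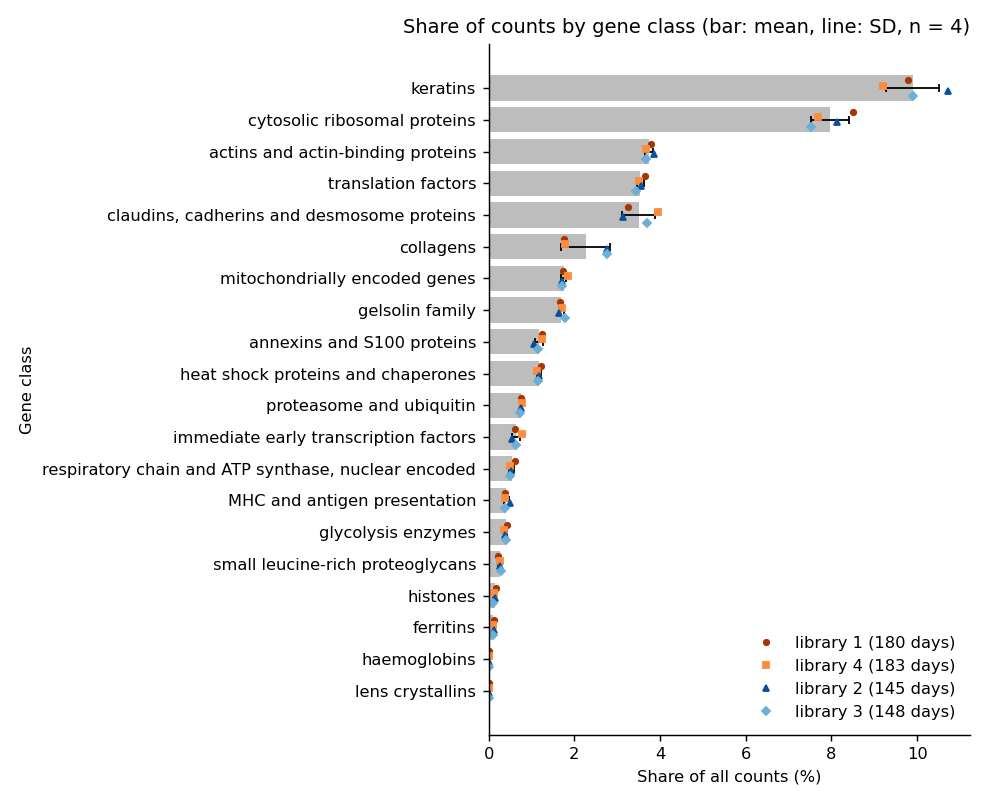
Percent of all counts per gene class (bar, mean of 4 libraries; line, SD; symbols, the single libraries). Keratins (9.902% ± 0.618) and ribosomal proteins (7.96% ± 0.446) lead, and in the collagen row the symbols form separate pairs by age, 1.76% and 1.78% in the older libraries, against 2.77% and 2.76% in the younger.

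Most genes for the structures of the epithelium were detected. Of 47 genes for keratins and surface proteins, 41 reached 1 CPM and 30 reached 100 CPM. Keratin reads were dominated by krt5, krt91, krt4 and krt97, followed by krt8 (2319 ± 233 CPM), krt15 (1291 ± 433 CPM) and krt18b (795 ± 94.7 CPM); keratins 8 and 18 are partners in the simple epithelia of mammals. Among these, krt15 spread most, with 936, 1871, 985 and 1373 CPM in libraries 1 to 4. The keratins krt95 and krt98 stayed below 1 CPM on average, at 0.0915 and 0.5997 CPM.

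Desmosome parts, which anchor keratin filaments between cells, were among the most read genes. The plakin PPL (periplakin) averaged 3582 ± 576 CPM, the plakophilin pkp3a 3122 ± 438 CPM, desmoplakin 3078 ± 659 CPM for one DSP copy (ENSDARG00000022309) and 386 ± 90.5 CPM for the other, and plakoglobin (JUP) 2808 ± 400.3 CPM. Among the claudins, which seal tight junctions, cldnb (1724 ± 169 CPM) and cldni (1119.9 ± 107 CPM) led. Below them were cldna (639 ± 25.9 CPM), cldn7b (610.1 ± 60.2 CPM) and cldne (577 ± 77.1 CPM). dsg2.1 had 3492, 3743, 4228 and 5122 CPM and the higher DSP copy 2896, 2259, 3358 and 3799 CPM in libraries 1 to 4, and both were highest in library 4, with library 3 next.

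Hemidesmosomes and the basal lamina hold the basal cells to the stroma. Their list summed to 13007, 12591, 16079 and 17332 CPM in libraries 1 to 4. The integrin pair of the hemidesmosome was matched in reads, itga6b at 3764 ± 854 CPM and ITGB4 at 3457 ± 722 CPM, whereas a second alpha 6 gene (ITGA6) averaged 0.445 CPM. Collagen XVII (col17a1b 2141 ± 358 CPM, col17a1a 677 ± 265 CPM) and plectin (plecb 1226 ± 273 CPM, pleca 284 ± 19.05 CPM) completed the plaque. Of the chains of laminin-332, the basal lamina protein that hemidesmosomes bind, lamb3 was abundant (377 ± 87.4 CPM) and lama3 was at 0.173, 0, 0.0246 and 0.0678 CPM in libraries 1 to 4. The gene listed as lama3 was thus near its detection limit although lamb3 was not, and LAMA5 averaged 53.4 ± 4.56 CPM. Collagen VII (col7a1), the anchoring fibril protein, averaged 158 ± 35.8 CPM.

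Of 40 genes for epithelial transcription factors, 37 reached 1 CPM. grhl3, a regulator of surface epithelium and barrier, led with 502, 545, 603 and 562 CPM in libraries 1 to 4, before TP63. The zinc finger factors KLF6 (429 ± 38.8 CPM), KLF5 (274 ± 35.3 CPM) and klf17 (180.4 ± 34.8 CPM), the AP-2 factors TFAP2C (268 ± 37.2 CPM) and TFAP2A (136 ± 18.2 CPM) and DLX3 (120.4 ± 7.77 CPM) followed. PAX6, the factor that specifies eye epithelia, was present from both copies, 227, 306, 312 and 280.1 CPM from ENSDARG00000045936 and 90.3, 94.6, 98.9 and 70.4 CPM from ENSDARG00000103379 in libraries 1 to 4. The first copy had more reads than the second in every library. klf2a was the least even member, at 515, 105, 552 and 413 CPM, low in library 2 only.

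The candidates for corneal crystallins, 45 genes named from proteins stored in corneas of zebrafish or other vertebrates, summed to 38794 ± 947 CPM, and 40.3% of this was scinla. scinla had 15248, 15089.9, 16400.5 and 15723 CPM in libraries 1 to 4, a coefficient of variation (CV, the SD as a percent of the mean) of 3.77%. Transketolase, a major soluble protein of the mouse cornea, had 6103, 5786, 6525 and 7593 CPM. Glutamine synthetase (GLUL, ENSDARG00000100003) averaged 1922 ± 536 CPM, HSP90AB1 3609 ± 388 CPM and HSPA8 3451 ± 172 CPM. Glycolytic enzymes that serve as crystallins elsewhere had fewer reads, PKM at 570.0 ± 81.4 CPM, ALDOA at 398 ± 71.8 CPM and ENO1 at 127 ± 17.5 CPM, and aldh3a2b, of the aldehyde dehydrogenase family whose ALDH3A1 member is abundant in mammalian corneas, was at 1.22 ± 0.453 CPM. No gene named aldh3a1 was matched.

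Surface cells of the fish cornea carry actin ridges (microridges), and 57 of 62 genes for actin and its partners reached 1 CPM. actb2 (15288 ± 999 CPM) and actb1 (4986 ± 517 CPM) led, followed by the thymosin tmsb4x (2258 ± 267 CPM), profilin pfn1 (1591 ± 279 CPM), ezrin (EZR, 1476 ± 274 CPM), tropomyosin tpm3 (1409 ± 163 CPM) and filamin flna (1388 ± 41.9 CPM). The sum over the list was 39564, 40470.5, 38572 and 38611 CPM in libraries 1 to 4, a CV of 2.296%. By contrast, the espin genes, bundlers of long actin protrusions, were at or below 0.2195 CPM.

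The stroma list, 64 genes for matrix and keratocytes, summed to 35415 ± 5556 CPM, 59 of them at 1 CPM or more. Fibrillar collagen I led, with col1a1a at 4030.4, 6542, 6115 and 3374 CPM, COL1A1 at 3367, 5282, 5431 and 2940.2 CPM and COL1A2 at 2763, 4576, 4673 and 2421 CPM in libraries 1 to 4. In all 3 genes libraries 2 and 3 lay above libraries 1 and 4. Prostaglandin D synthase, a lipocalin, was next, 4088 ± 609.6 CPM from ptgdsb.1 and 2357 ± 316 CPM from ptgdsb.2, while ptgdsa averaged 0.232 CPM. The matricellular THBS1 (ENSDARG00000010785, 2166 ± 306 CPM), POSTN (ENSDARG00000104267, 2163 ± 357 CPM) and SPARC (1872 ± 209 CPM) and the collagen VI chains COL6A3 (1000.5 ± 183 CPM) and col6a1 (663 ± 139 CPM) followed.

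Small leucine-rich proteoglycans set the spacing of collagen fibrils, which clarity depends on. Decorin (DCN) had the most reads of them, 1331, 1619, 1721 and 1741 CPM in libraries 1 to 4, then FMOD (324 ± 41.7 CPM), lumican (LUM, 197 ± 22.4 CPM) and keratocan (KERA, 161 ± 23.9 CPM), the marker of keratocytes. chst6, the sulfotransferase for keratan sulfate, averaged 23.9 ± 5.29 CPM. Opticin (optc), in mammals a protein of the vitreous, was at 0.197, 0, 0.0246 and 0.0226 CPM.

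Markers of the corneal endothelium gave a less clear picture. Their list summed to 2087 ± 220.2 CPM over 27 genes, led by ALCAM (625 ± 92.6 CPM) and ATP1B1 (ENSDARG00000013144, 453 ± 62.9 CPM), which other cells of the cornea may express too. COL8A2 (154 ± 32.9 CPM) and COL8A1 (98.2 ± 23.7 CPM), the collagens of Descemet's membrane, CDH2 (124 ± 18.7 CPM) and the anterior segment factors foxc1b (43.9 ± 7.16 CPM) and FOXC1 (36.8 ± 7.49 CPM) were present in every library. SLC4A11, the transporter whose loss clouds the human endothelium, was at 0.247, 0.435, 0.565 and 0.294 CPM in libraries 1 to 4.

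Vessel genes were low. The 25 genes of the blood and lymph vessel list summed to 253 ± 16.6 CPM, and the endothelial cadherin cdh5 was at 0.665 CPM. The highest were the lymphatic receptors FLT4 (51.9 ± 6.67 CPM) and lyve1a (48.03 ± 8.36 CPM), with more reads than the blood vessel receptor kdrl (21.6 ± 1.75 CPM). Haemoglobin genes took 0.00209% of reads, with hbaa1 at 23.9, 16.2, 27.4 and 13.99 CPM in libraries 1 to 4.

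Axons contribute little mRNA to a tissue since the cell bodies lie elsewhere, and the nerve list was low once tubb4b was set aside. This broadly expressed beta tubulin made up 82.4% of the list, and the other 43 genes summed to 227 ± 15.1 CPM. TUBA1A (70.9 ± 4.81 CPM), UCHL1 (32.3 ± 10.5 CPM) and nrxn1a (23.4 ± 3.48 CPM) led them, gap43 was at 3.397 ± 1.38 CPM, and the sensory neuropeptide gene tac1 had no count in any library. A count of 0 allows up to 0.0719 CPM at the mean library total. Schwann cell and glia genes, whose cell bodies do lie in the tissue, summed to 962 ± 65.4 CPM. They included the myelin genes PMP22 (277 ± 74.8 CPM) and mbpb (147 ± 22.7 CPM) and the Schwann cell factor SOX10 (3.84 ± 0.393 CPM). PMP22 alone made up 28.8% of this list, and whether the reads of the list came from glia was not tested.

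The immune genes with the most reads were those of antigen presentation. The invariant chain genes cd74a (503, 913, 577 and 617 CPM) and cd74b (382, 545, 350.2 and 368 CPM) led the list common to leukocytes in libraries 1 to 4, and library 2 was the highest in both. The pan-leukocyte phosphatase ptprc was even, at 20.2, 21.2, 20.9 and 21.2 CPM. Of the macrophage list apoeb was 93.2%, and the other 25 genes summed to 329.9 ± 79.2 CPM, with the lysosomal protease LGMN (76.3 ± 14.3 CPM), cd68 (36.9 ± 13.4 CPM), marco (7.98 ± 3.18 CPM) and the receptor csf1ra (5.62 ± 1.197 CPM). cd68 was highest in library 2 as well, at 56.5 CPM, against 27.5 to 34.2 CPM in the other 3.

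The neutrophil list was led by nccrp1 (256 ± 12.5 CPM) and CEBPA (235 ± 37.02 CPM), a factor that skin epithelium also uses. MMP9 and srgn came next, at means of 89.65 and 58.86 CPM. Lower on the list were the granule genes npsn and lyz, at 4.38 ± 1.11 and 0.442 ± 0.444 CPM. Whether the reads of these genes came from neutrophils was not tested. Most lymphocyte genes were below 1 CPM: of 29 genes, 8 reached 1 CPM, led by RUNX3 (35.2 ± 1.73 CPM), CCR9 (30.6 ± 4.04 CPM) and GATA3 (25.3 ± 1.78 CPM), of which GATA3 is also on the epithelial list. The T cell genes lck (0.636 ± 0.182 CPM) and cd4-1 (0.658 ± 0.182 CPM) were below 1 CPM, and the B cell gene cd79b had no count.

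Barrier and defence genes, 49 in all, summed to 8192 ± 252 CPM. The transglutaminase tgm5l, of an enzyme family that cross-links surface proteins, had 1517, 809, 1523 and 1557 CPM in libraries 1 to 4, lower in library 2 than in the other 3. The beta 2 microglobulin genes b2ml (1174 ± 100.0 CPM) and b2m (471 ± 134 CPM), the class I gene mhc1zba (819 ± 114 CPM) and the protease inhibitors spint2 (636 ± 115 CPM) and spint1a (552 ± 38.4 CPM) followed. Mucous cell and ionocyte genes included the secreted mucin muc5.1 (238, 382, 192 and 316 CPM in libraries 1 to 4) and agr1 (501 ± 102 CPM), a partner of mucin folding. However, 44.6% of that list was icn, an S100 protein gene, and icn2 (634 ± 86.1 CPM) came next. The ionocyte factors foxi3a and foxi3b were at 0.159 and 0.257 CPM.

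Tissue next to the cornea that dissection can carry over was looked for by its own markers. Lens genes were at or near 0: of 47, 28 had no count, and the list summed to 4.79, 4.98, 5.45 and 6.51 CPM in libraries 1 to 4, led by CRYBB3 (1.92 ± 0.509 CPM). Retina genes summed to 401 ± 98.7 CPM, with the rod genes GNAT1 at 8.17 ± 3.49 CPM and PDE6B at 1.36 ± 0.909 CPM, and the rod factor nrl had no count. Pigment cell genes summed to 435 ± 47.3 CPM, led by tspan36 (89.9 ± 5.501 CPM), FHL2 (ENSDARG00000042018, 87.2 ± 13.4 CPM) and the purine enzyme gene PAICS (57.6 ± 13.2 CPM), with 8 of 34 genes at 10 CPM or more, and the melanin enzymes DCT and TYR averaged 1.598 and 1.13 CPM.

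Skeletal muscle and cartilage were more evident. The muscle list was led by the smooth muscle genes TAGLN (ENSDARG00000033466, 862 ± 124 CPM) and acta2 (344 ± 34.6 CPM), followed by the fast muscle genes atp2a1 (511, 162, 264 and 155 CPM) and ckma (231, 194, 129.7 and 124 CPM), both highest in library 1. The list for cartilage and sclera, the wall of the eye that joins the cornea, held COL2A1 (ENSDARG00000011407, 699, 1167, 1159 and 721 CPM) and hapln1a (299, 309, 299 and 312 CPM). COL2A1 followed the order of the collagen I genes, higher in libraries 2 and 3, but hapln1a did not.

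**Figure D3:**
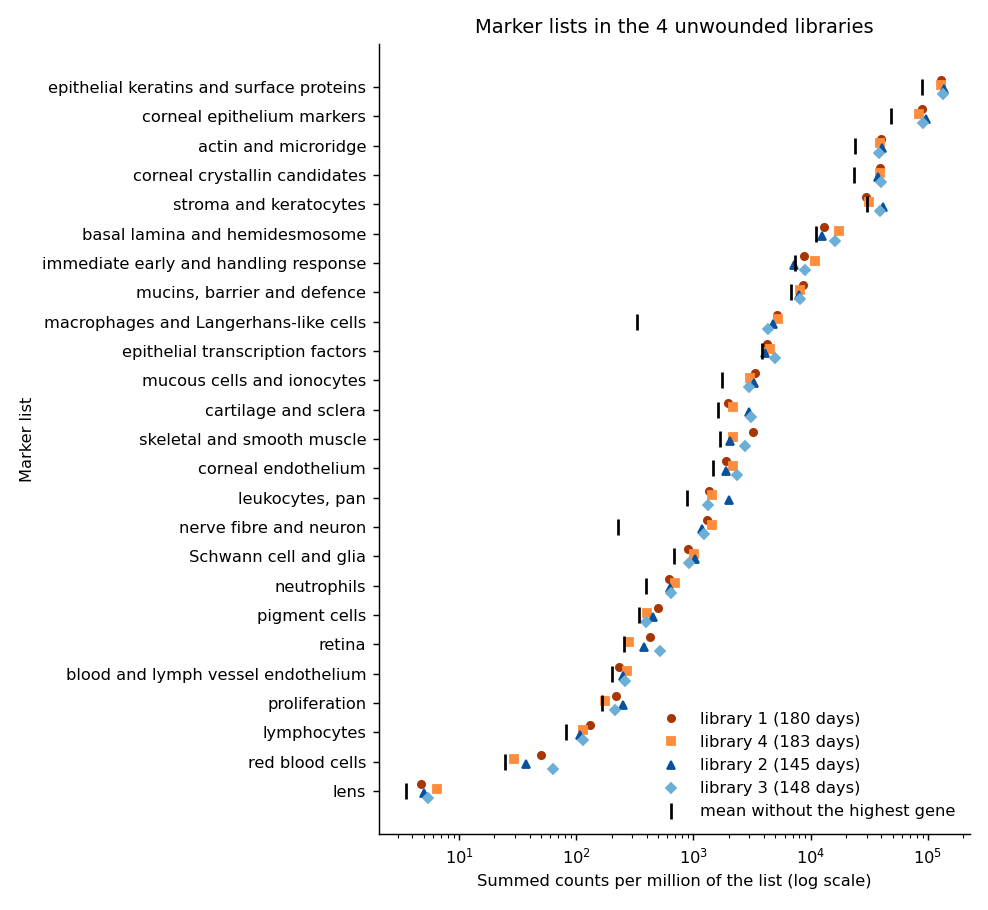
Summed CPM (log axis) of each marker list, ordered by mean, with a symbol for each unwounded library and a black line at the mean of the sum without the highest gene of the list. Lists lie between 5.43 CPM for lens and 131847 CPM for keratins and surface proteins, and the line falls far to the left for macrophages, which rest on apoeb, and nerve, which rests on tubb4b.

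The unwounded corneas carried few transcripts of dividing cells. The 39 genes of the proliferation list summed to 219, 249, 214 and 176 CPM in libraries 1 to 4, with CCND1 (49.9 ± 4.92 CPM), PCNA (35.1 ± 5.75 CPM) and the replication helicase gene MCM4 (23.7 ± 4.72 CPM) first. The marker of cycling cells mki67 had 4.19, 4.86, 6.63 and 2.55 CPM and CDK1 averaged 1.801 ± 1.001 CPM. Of these 39 genes, 24 reached 1 CPM.

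The 50 genes listed for immediate early and handling responses summed to 8794, 7236, 8919 and 10800.2 CPM in libraries 1 to 4. BTG1 (1579 ± 183 CPM), the glucocorticoid-induced FKBP5 (1108, 652, 1149.9 and 1520.0 CPM) and the prostaglandin synthase PTGS2 (833, 631, 615 and 771 CPM) led them. The immediate early factors FOSL1 (385, 455, 314 and 607 CPM), JUNB (ENSDARG00000104773, 213, 392, 278 and 483 CPM) and egr1 (198, 295, 236 and 389.6 CPM) were highest in library 4. FKBP5 was lowest in library 2, whereas FOSL1 and egr1 were not. The libraries hold no cornea taken without anesthesia and handling, so a level before handling is not known.

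Zebrafish descend from a fish whose genome doubled, and many genes persist as copies named a and b. Of 702 pairs of symbols that differ only in a final a or b, 552 had a summed mean of at least 1 CPM. In 294 of them (53.3%) 1 copy had at least 4 times the reads of the other in all 4 libraries, 159 with the a copy higher and 135 with the b copy higher. In 61 pairs the copies stayed within 2-fold in every library. The rule also takes in a few pairs that are not copies, such as eif5a/b, cldna/b, flna/b and eloa/b, and the ratios are of reads, with no correction for length.

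The split between copies was alike in the 4 libraries. In 497 of 552 pairs the same copy was the higher in all 4 libraries, and over the 146 pairs with both copies at 10 CPM or more the log2 ratio had a median SD of 0.247 between libraries, against a median size of 1.22. scinla had 15248, 15089.9, 16400.5 and 15723 CPM in libraries 1 to 4 and scinlb 1412, 1196, 1252 and 1298 CPM, a log2 ratio of 3.60 ± 0.12. The poly(A)-binding protein pair pabpc1a/b was steadier still, at a log2 ratio of 3.01 ± 0.04, and the cold-inducible cirbpa/b, higher in the b copy, at -2.08 ± 0.06. Collagen XVII was an exception, with 469, 1056, 655 and 528 CPM for col17a1a and 1682, 2032, 2438 and 2411 CPM for col17a1b. The log2 ratio of col17a1a to col17a1b was -1.72 ± 0.54, with the most col17a1a in library 2 and the most col17a1b in library 3. The shear-responsive factor pair klf2a/b changed its order, with 515, 105, 552 and 413 CPM of klf2a and 133, 178, 219 and 209 CPM of klf2b, and klf2b was the higher in library 2 only.

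In the most unequal pairs 1 copy was at or near 0 at this depth. apoea had 0, 0.0242, 0.0737 and 0.0904 CPM in libraries 1 to 4, while apoeb had 4821, 4291, 4043 and 4945 CPM. s100a10a, of the annexin-binding S100 proteins, had 0, 0.145, 0.0246 and 0 CPM, and s100a10b 1169.7, 1041, 1217 and 1289 CPM. The copies gpa33b and ctslb had no count, against 286, 365, 244 and 220.2 CPM of gpa33a, a surface protein of epithelia, and 185, 215, 174 and 204 CPM of ctsla, a lysosomal protease. The reverse held for tcnba and cycsa with no count, against 207, 280.1, 188 and 122 CPM of tcnbb, a cobalamin carrier, and 177, 168, 176 and 217 CPM of the cytochrome c gene cycsb. The hyaluronan receptor gene cd44a had 629, 552, 634 and 681 CPM and cd44b 0.716, 0.702, 0.639 and 0.588 CPM.

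**Figure D4:**
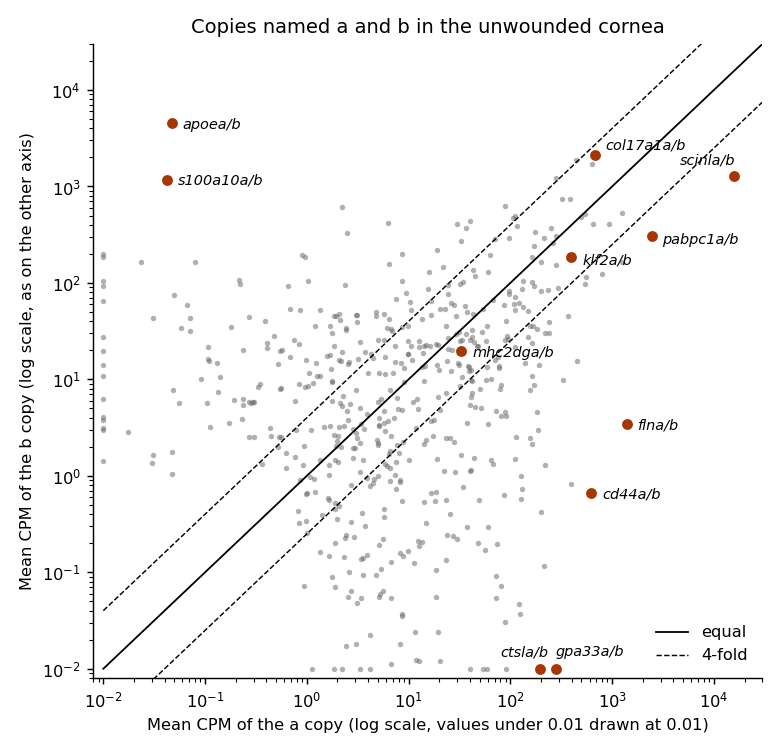
Mean CPM of the b copy against the a copy (both axes log) for the 552 pairs with a summed mean of at least 1 CPM, with the line of equal reads and lines at 4-fold. Labelled pairs are named in the text, among them apoea/b and s100a10a/b with an a copy near 0 at upper left and gpa33a/b and ctsla/b with a b copy at 0.

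The 4 libraries resembled each other closely. Over 14984 detected genes the log2(CPM + 1) values of library pairs correlated, across genes, at 0.973 (libraries 1 and 2) to 0.981 (libraries 3 and 4), and 2.18% to 4.50% of genes differed by more than 2-fold. Of the 7515 genes at 10 CPM or more, the median CV beyond counting error was 13.3%. The quartiles were 8.68% and 19.7%, 110 genes passed 50% and 8 passed 100%. The common biological CV that edgeR estimated over 16668 genes was 25.2%.

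The genes that spread most were of a few kinds. 3 of the first 5 were genes of the major histocompatibility complex (MHC), which present antigen and differ between individual fish in sequence and in gene content. mhc1uba had 229.6, 25.3, 13.8 and 15.98 CPM in libraries 1 to 4, high in library 1 alone. mhc2dga had 90.6, 0, 0.0246 and 41.04 CPM and mhc2dgb 52.7, 2.23, 0.909 and 22.8 CPM, both high in libraries 1 and 4 and at or near 0 in libraries 2 and 3. Both class II genes were highest in library 1, with library 4 next. Reads of near-identical MHC copies may be assigned to the wrong gene, and so these values are uncertain.

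The keratin krt92 had 3.16, 74.4, 245 and 3.07 CPM, high in libraries 2 and 3, at a CV of 140.1%, against at most 33.5% (krt15) for the other keratins over 10 CPM. The myosin gene myha (9.13, 8.15, 78.3 and 6.24 CPM) was high in library 3 alone, and the melanosome fibril gene pmelb (1.26, 33.5, 16.2 and 1.65 CPM) in libraries 2 and 3. The mucin-like mucms1 had 10.8, 88.7, 43.1 and 0 CPM, with no count in library 4. ENSDARG00000095200, a gene with a clone name only (6.24, 33.04, 7.76 and 4.61 CPM), stood out in library 2, and CH25H, the cholesterol 25-hydroxylase of antiviral defence, in library 4 (17.3, 14.4, 12.03 and 61.1 CPM). PDK2, a kinase that restrains pyruvate use, had 117, 28.8, 173 and 9.54 CPM, each library apart from the others.

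**Figure D5:**
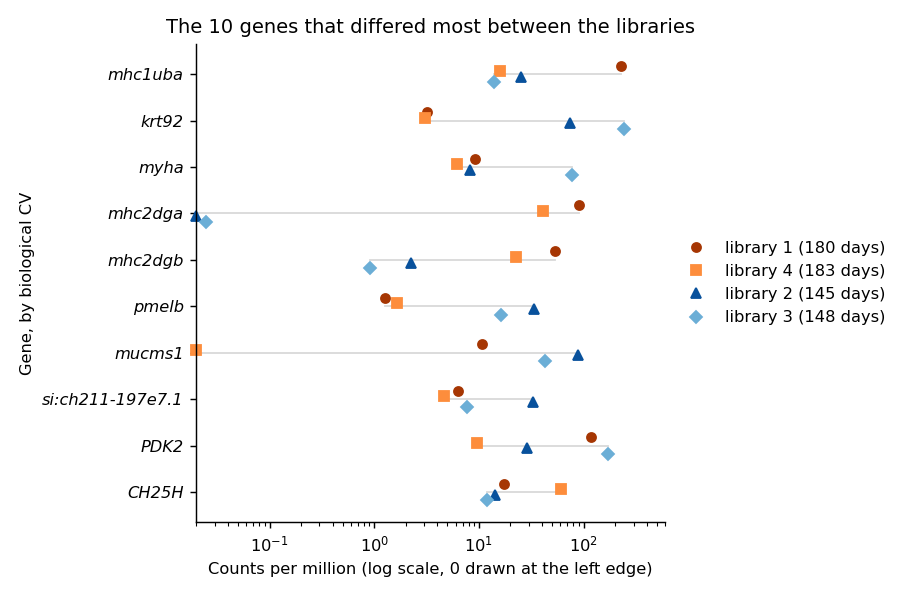
CPM (log axis, values of 0 at the left edge) of the 10 genes with the largest CV beyond counting error, with a symbol for each library. The older libraries lie right of the younger for mhc2dga and mhc2dgb and left of them for krt92, pmelb and mucms1, while mhc1uba, myha, the clone-named gene and CH25H each have 1 library apart.

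Genes with reads in some corneas and hardly any in others were rare. Of 8316 genes at 10 CPM or more in a library, 16 were under 1 CPM in another, and library 2 was the highest for 9 of these 16. They included ifi44a3 (1.04, 12.5, 3.73 and 0 CPM in libraries 1 to 4), of an interferon-induced family, the integrin itga2.3 (0.543, 15.7, 9.09 and 9.92 CPM) and the cadherin cdh29 (6.61, 13.6, 0.958 and 9.94 CPM). si:dkey-266f7.5 had 10.1, 0, 0 and 0 CPM, so all its reads came from library 1. These 4 were picked from the 16 after their values were seen.

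Age was the only label that differed among the libraries, and it was tested with 2 libraries against 2 in edgeR's quasi-likelihood test with Benjamini-Hochberg adjustment over 18769 genes. At an adjusted p of 0.05, 7 genes (0.0373% of those tested) were higher in the older corneas and 4 (0.0213%) lower. A further measure of the background is that 2302 genes (12.3%) had both older libraries above both younger ones and 3735 (19.9%) below. Libraries of the same depth were simulated over 16668 genes, with the same spread for all genes of like level and changes only in genes above 1 CPM. In them the test recovered 18.5% of 2-fold changes and 90.5% of 4-fold changes, so smaller differences were mostly out of its reach. These rates do not cover genes that spread more than others of their level. The counts were unstable: with library 1, 2, 3 or 4 left out, 14, 20, 51 and 14 genes were higher and 15, 15, 32 and 5 lower, and DESeq2 called 35 and 26.

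Of the genes higher in the older corneas, PGP, a phosphoglycolate phosphatase, had 43.97 and 48.04 CPM in the older libraries, against 9.94 and 10.05 CPM in the younger (log2 fold change 2.26, SE 0.20, adjusted p = 0.0282 in edgeR). gbgt1l4, of a glycosyltransferase family, had 29.96 and 28.7 CPM in the older libraries, against 6.29 and 4.298 CPM in the younger (2.53, SE 0.25, adjusted p = 0.0282). mhc2dga, with the smallest adjusted p of all (0.00267), had 90.6 and 41.04 CPM in the older libraries, against 0 and 0.0246 CPM in the younger, and mhc2dgb had 52.7 and 22.8 CPM in the older libraries, against 2.23 and 0.909 CPM in the younger (4.65, SE 0.52, adjusted p = 0.0369). The other genes called higher have no name beyond a clone or an identifier. ENSDARG00000101956 had 6.42 and 19.1 CPM in the older libraries, against 0 and 0.0491 CPM in the younger, ENSDARG00000092578 had 6.51 and 5.79 CPM in the older libraries, against 0.726 and 0.663 CPM in the younger (log2 fold change 3.199, SE 0.36, adjusted p = 0.0369), and ENSDARG00000093054 had 2.71 and 2.69 CPM in the older libraries, against 0 and 0 CPM in the younger. The groups did not overlap for any of the 7, but the test that called them on the same values favours such genes. Both older libraries lay above both younger ones in 12.3% of all genes tested.

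Of the genes lower in the older corneas, pmelb had 1.26 and 1.65 CPM in the older libraries, against 33.5 and 16.2 CPM in the younger (log2 fold change -4.02, SE 0.39, adjusted p = 0.0282 in edgeR). CCDC39, which motile cilia need, had 7.21 and 6.73 CPM in the older libraries, against 35.3 and 29.2 CPM in the younger (-2.15, SE 0.22, adjusted p = 0.0282). krt92 had 3.16 and 3.07 CPM in the older libraries, against 74.4 and 245 CPM in the younger (-5.65, SE 0.59, adjusted p = 0.0282), and fbxo44.10, an F-box gene, 0.543 and 0.249 CPM in the older libraries, against 7.55 and 5.33 CPM in the younger (-3.96, SE 0.47, adjusted p = 0.0481). Without library 4, fbxo44.10 no longer passed (adjusted p = 0.0513), whereas the other 3 passed without any 1 library. Of the 11 genes called in edgeR, the list for keratins and surface proteins held 1 (of 43 tested) and the pigment cell list 1 (of 28). Every other list had none, those for stroma, corneal endothelium, vessels, nerve, glia and leukocytes among them. Over all genes tested 0.0373% were called higher and 0.0213% lower, so a list of this size with none says little. mhc2dga and mhc2dgb, the 2 called of 33 tested in the class for MHC and antigen presentation, are on none of the lists.

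Collagens took fewer reads in both older libraries, a difference that no collagen gene carried past the test in edgeR. Their share of reads was 1.76% and 1.78% in the older libraries, against 2.77% and 2.76% in the younger. Of 54 collagen genes tested, 33 (61.1%) had both older libraries below both younger ones and 3 above, beside 19.9% and 12.3% of all genes tested, with a median log2 fold change of -0.42 against -0.0018 over all genes tested. None passed in edgeR (smallest adjusted p = 0.447), 19 had an unadjusted p under 0.05, and DESeq2 called 3 lower and 1 higher. Among all 18769 genes tested, 780 had an unadjusted p under 0.05 in edgeR, and DESeq2 called 25 of the 18769 lower and 34 higher. COL1A2 had 2763 and 2421 CPM in the older libraries, against 4576 and 4673 CPM in the younger (log2 fold change -0.78, SE 0.15, adjusted p = 0.447 in edgeR), and COL10A1 (ENSDARG00000101535), a collagen of hypertrophic cartilage, 289.7 and 254 CPM in the older libraries, against 677 and 475 CPM in the younger (-1.02, SE 0.20, adjusted p = 0.473). The groups do not overlap for either.

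The list for tissue around the cornea that is rich in collagen itself had the same order. The cartilage and sclera list, which shares no gene with the stroma list but holds collagens itself, summed to 1974 and 2169 CPM in the older libraries, against 3000.3 and 3086 CPM in the younger, and 11 of its 28 genes tested (39.3%) had both older libraries below both younger. Over all genes tested this share was 19.9%. Split after the values were seen, the 11 were all 9 collagens of the list and 2 of its 19 other genes tested. These 2 were MATN4, a cartilage matrix gene, with 104 and 92.1 CPM in the older libraries, against 122 and 149 CPM in the younger, and ucmaa, with 37.7 and 38.1 CPM in the older libraries, against 46.4 and 47.9 CPM in the younger. The highest of the other genes, hapln1a, a linker of cartilage matrix, had 299 and 312 CPM in the older libraries, against 309 and 299 CPM in the younger, and the groups overlap. The muscle list did not follow this order, at 3211 and 2167 CPM in the older libraries, against 2038 and 2732 CPM in the younger, and the retina list had 426 and 282 CPM in the older libraries, against 377 and 519 CPM in the younger. The proliferation list summed to 219 and 176 CPM in the older libraries, against 249 and 214 CPM in the younger. Its median log2 fold change was -0.52 over 32 genes tested, and none passed in edgeR or DESeq2. Of the 32, 2 had an unadjusted p under 0.05 in edgeR, beside 780 of all 18769 genes tested. What part carried-over tissue has in the collagen difference was not tested.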

How the data were processed

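RNA was sequenced from pooled corneas of adult zebrafish, and only the 4 unwounded libraries were analysed here. According to the study's methods and processing notes, polyadenylated RNA was made into directional, PCR-amplified libraries and sequenced from a single end. The authors called bases with bcl2fastq 2.20.0.422, aligned to GRCz11 (STAR 2.6.0c) and used featureCounts with the gene models of Ensembl release 97. Trimmomatic is named without settings. The deposited table holds raw, unnormalized counts. Whether counting used strand is not given in the sources used here, so reads of overlapping antisense genes cannot be told apart, and near-identical copies are uncertain.

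Symbols came from a reference table that names 29201 of the 32520 identifiers. Of 898 symbols in 25 lists, 828 were matched, 197 of them through a human-style symbol without its copy letter. Coding lengths and sequences of the files' build were not used here, so levels are CPM without correction for length. The log2 ratio of copies used a pseudocount of 0.1 CPM. CV was corrected by subtracting the counting variance. Older and younger corneas were compared in R 4.3.3 with edgeR 4.0.16 (filterByExpr, TMM, quasi-likelihood test, 2-sided, Benjamini-Hochberg, threshold 0.05), with DESeq2 1.42.0 as an alternative. The steps were tested on simulated data. Plots used matplotlib 3.10.9. The libraries are separate pools of fish, so p-values measure the spread between pools, and the limit given for a count of 0 covers counting error only, since PCR copies are not independent molecules.

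Genes were named by rule: the 20 highest, up to 6 members per list and those at 0, the 10 highest and 10 most unequal pairs, the 10 most variable genes, and up to 5 per direction of the age comparison. Others that the text names were chosen after their values were seen, as markers that define a list. The members and lists were chosen with earlier results of these data known. Alternatives were other scalings, limits, filters and leaving out each library, and 1 added after the data were seen, pairs that share a human-style symbol. A few genes are not reported here.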

Additional observations from a re-analysis of the deposited data

Results flagged for a closer look

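In each set of 4 libraries the highest and the lowest value were compared with the rest by Dixon's ratio, the gap to the nearest library over the whole range. Of 238 values tested, 21 had a library farther out than the 95% limit for 4 samples, where chance alone gives about 1 in 20. The values tested include 10 genes picked for their spread between libraries, 4 of which are among the 21, and nested values such as a list and its members, so the 21 cannot be read against that share. Library 2 was the odd one in 10 of the 21, library 3 in 5, library 4 in 4 and library 1 in 2.

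Library 2 stood above the other 3 in antigen presentation, with a ratio of 0.910 for the MHC share of reads, 0.839 for the summed leukocyte list and 0.839 for cd74b, and also for the retinal binding protein rbp3 (0.833) and the clone-named gene ENSDARG00000095200 (0.889). It stood below them for KLF5 (0.916), the sodium pump subunit ATP1B1 (0.878), lyve1a (0.836) and the transglutaminase tgm5l (0.947), which had 809 CPM in library 2, against 1517 to 1557 CPM in the others. Its excess of s100a10a (0.831) rests on 0.145 CPM.

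Library 3 stood above the others for tjp1b (0.916), the lens gene crygm4 (0.877, at 2.43 CPM) and myha (0.960), and below them for the pigment cell gene tspan36 (0.917) and for eif5a (0.865). Library 4 was high for CH25H (0.893) and the lens crystallin share (0.850, at 0.000612% of reads) and low for CREG1 (0.845) and acta2 (0.890). Library 1 was high for mhc1uba (0.947) and for PAICS (0.863), an enzyme of purine synthesis.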

How the results depend on the processing

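The levels of all 194 named genes and the 25 list sums moved by less than 1 SD under TMM scaling and DESeq2's size factors. Both scalings keep the average size of the 4 libraries as it was, so a mean over the libraries could hardly move. They therefore say little of the stability of levels and sums. The class shares without mitochondrially encoded genes also moved by less than 1 SD. The median of 4 values, or their mean with 1 library left out, cannot lie 1 SD from their mean, so these alternatives say nothing of the stability of levels, sums and shares. At a mean of 5 CPM, 9919 genes were detected. Among pairs that share a human-style symbol, chosen after seeing the data, 674 of 1270 were unequal by 4-fold. The common biological CV was 19.5% over genes at 10 CPM or more, 33.3% over every gene with a count, and 23.7% (without library 2) to 26.4% (without library 3) with a library left out. The age comparison depended most on the processing. DESeq2 called 35 genes higher and 26 lower, every gene with a count gave 110 and 93, and at least 10 counts in every library gave 4 higher. Leaving out a library gave 14 to 51 genes higher and 5 to 32 lower, most without library 3; the lone library of an age was then taken to vary as the others do. The cause was not tested. fbxo44.10 missed the threshold without library 4 (adjusted p = 0.0513), and no other called gene did under any alternative that tested it. Ranks and copy ratios per kilobase were not run, since no coding lengths of the files' build were used here. No paired analysis was possible because only the unwounded library of each number was used. The 4 libraries, not the depth of at least 40524885 counts, limit these results: spread within a tank cannot be seen, and a level under 0.0719 CPM is at the limit that 3 counts set.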

Other observations

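Genes of protein synthesis and respiration differed little between the ages, with median fold changes just above 0. Of 82 translation factors tested, 24 (29.3%) had both older libraries above both younger ones, as had 32 of 110 nuclear genes of the respiratory chain (29.1%) and 18 of 94 cytosolic ribosomal proteins (19.1%), beside 12.3% of all genes tested. The median log2 fold changes, older against younger, were 0.14, 0.22 and 0.12 in these 3 classes. Neither edgeR nor DESeq2 called any of them at an adjusted p of 0.05. In edgeR 1 translation factor, 2 respiratory chain genes and 0 ribosomal proteins were under an unadjusted 0.05, beside 780 of all 18769 genes tested. None of the 12 histone genes tested (0%) had both older libraries above both younger. The linker histone gene histh1l1 was highest in library 1, with 463 and 168 CPM in the older libraries, against 193 and 109 CPM in the younger.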
